A study of Homo sapiens with 9 samples.

Results

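Among the 9221 genes whose ribosome footprints were counted in Huh-7 cells, 52 encode the nuclear part of respiratory complexes III and IV, of the ATP synthase (complex V) and their accessory and assembly proteins. They were chosen by name: every symbol that starts with UQCR, UQCC or ATP5, or with COX followed by a digit, together with CYC1, CYCS, USMG5, C14orf2 and ATPIF1. Symbols are those of the deposited tables. All 52 had a row in the comparison of PF8503 with vehicle, which listed 9157 genes, and 51 had one in the comparison of PF846 with vehicle, which listed 8839. COX10 was the member with a PF8503 row only. The naming rule does not reach every protein of these complexes: ATP5S and ATP5SL carry the prefix without being structural subunits, and NDUFA4, a complex IV subunit, is named as if it belonged to complex I.

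Huh-7 is an established human hepatocellular carcinoma line. Cells were treated for 1 hr with 1.5 μM PF8503 (PF-06378503), 1.5 μM PF846 (PF-06446846) or 0.5% DMSO as the vehicle, in 3 biological replicates per condition, and ribosome-protected fragments were sequenced from the 9 libraries. PF8503 and PF846 are related small molecules that stall the ribosome on selected nascent chains, and the study asked which proteins each of them affects. Each value below is the authors' mean over the libraries of 1 condition, a read count divided by size factors and here called the normalized count. The tables give 1 mean per condition and no values of single libraries, so no spread between libraries is given. No difference below was tested, and the authors' own fold changes and p-values were not used. A log2 ratio below is always the authors' compound mean over their vehicle mean. The same vehicle libraries served both comparisons, so the ratios for the 2 compounds are not independent of each other. Counting was restricted to the part of each coding sequence 3' of a detected stall, or, where no stall was called, to the codons from number 10 on, without the last 10. A footprint count depends on the amount of mRNA and on ribosomes per mRNA, which cannot be told apart here. The hepatocyte markers ALB and AFP stood at 148370 and 212970 normalized counts in vehicle, and all 12 hepatocyte markers looked for were listed, while of the markers of blood, fibroblast and endothelial cells only PECAM1 was listed.

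Complex III passes electrons from ubiquinol to cytochrome c, and complex IV passes them from cytochrome c to oxygen. Both move protons across the inner mitochondrial membrane, and complex V lets them return through a turning ring of c subunits while its F1 head makes ATP. Cytochrome b of complex III, MT-CO1, MT-CO2 and MT-CO3 of complex IV and MT-ATP6 and MT-ATP8 of complex V are made inside mitochondria from mitochondrial DNA. The products of the 52 genes are made by cytosolic ribosomes and imported, so each complex draws on both cytosolic and mitochondrial translation. Liver cells depend on this machinery for much of their ATP.

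The coding sequences of 4 short genes are shown first, because few codons lie behind the values that stand apart in complex V. They are USMG5, ATP5I and C14orf2 from the membrane part and ATP5E from the F1 head. Each is the coding sequence of the canonical transcript in GENCODE version 44 on GRCh38, read 5' to 3' with the stop codon. Capitals mark the codons counted by default, from codon 10 on and without the last 10.
USMG5: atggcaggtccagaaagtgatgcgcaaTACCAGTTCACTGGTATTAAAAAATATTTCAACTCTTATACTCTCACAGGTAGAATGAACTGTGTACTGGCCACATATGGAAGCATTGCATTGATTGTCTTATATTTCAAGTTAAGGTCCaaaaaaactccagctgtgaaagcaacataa
ATP5I: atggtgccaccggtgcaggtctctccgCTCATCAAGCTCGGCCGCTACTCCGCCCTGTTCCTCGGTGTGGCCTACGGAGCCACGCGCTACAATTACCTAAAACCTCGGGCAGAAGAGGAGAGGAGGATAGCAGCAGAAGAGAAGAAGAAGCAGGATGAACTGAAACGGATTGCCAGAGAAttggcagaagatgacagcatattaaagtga
C14orf2: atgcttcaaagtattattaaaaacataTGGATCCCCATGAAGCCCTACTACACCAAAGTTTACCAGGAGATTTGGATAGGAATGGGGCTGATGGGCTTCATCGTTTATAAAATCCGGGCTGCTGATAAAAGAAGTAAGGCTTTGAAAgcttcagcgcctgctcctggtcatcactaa
ATP5E: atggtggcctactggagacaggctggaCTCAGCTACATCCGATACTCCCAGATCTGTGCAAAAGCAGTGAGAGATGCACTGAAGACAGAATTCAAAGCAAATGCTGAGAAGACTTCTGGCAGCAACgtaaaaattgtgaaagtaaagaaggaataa

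USMG5, now named ATP5MK, encodes DAPIT, a small protein of the membrane part of complex V. Its transcript lies on the minus strand at chr10:103389050-103396475, and its 2 coding exons cover 103392371 to 103392457 and 103392197 to 103392283. The protein has 58 residues, and 40 of the 59 codons were counted by default, with a GC content of 37.3% over the coding sequence. ATP5I (now ATP5ME), which encodes subunit e, lies at chr4:672436-674276 with 4 coding exons, of which 51 of 70 codons were in the default region. C14orf2 (now ATP5MJ), the small proteolipid of 58 residues, lies at chr14:103912288-103921529 and also had 40 codons in the default region. ATP5E (now ATP5F1E), the epsilon subunit of F1, lies at chr20:59025475-59032335 with 33 of 52 codons in the default region, although fewer were counted in the PF8503 comparison. All 4 are on the minus strand. Reads from so few codons make each of these values rest on a short stretch of sequence.

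Most of the 52 genes had nearly the same footprint signal with and without compound. The median log2 ratio of the members was 0.042 with PF8503, against 0.013 over all transcripts, and 0.017 with PF846, against 0.00086 over all transcripts. The PF8503 median was 0.024 without USMG5, 0.022 over members with at least 100 normalized counts and 0.020 over structural subunits only. With PF8503, 31 members lay above 0 and 21 below, and 45 of 52 stayed within 0.25 of 0 on the log2 scale. With PF846, 29 lay above and 22 below, and 47 of 51 stayed within that limit. Together the members took 1.08% of the normalized counts in vehicle and 1.1% with either compound. The share of members above 0 was 59.6% with PF8503, beside 54.7% of all transcripts, and 56.9% with PF846, beside 50.3%.

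**Figure D1:**
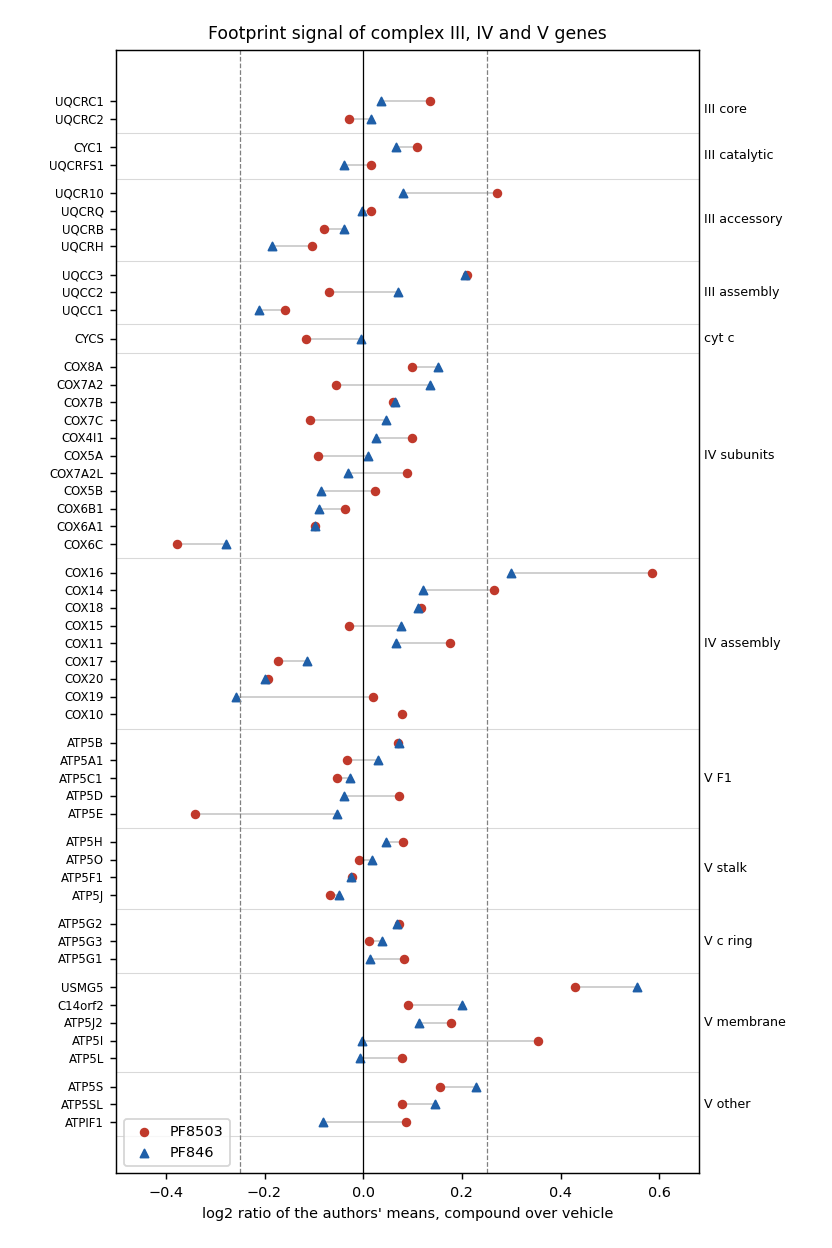
Log2 ratio of the authors' means, compound over vehicle, on the x axis for each gene on the y axis, grouped by complex and role. Circles are PF8503, triangles PF846, grey lines join the 2 values of a gene, and dashed lines mark 0.25 in either direction. USMG5 lies beyond the dashed line with both compounds, at 0.43 and 0.55, and COX6C on the opposite side, at -0.38 and -0.28.

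A log2 ratio of at least 0.25 in size was used as the limit for calling a gene higher or lower. With PF8503, 5 of 52 members were higher by this limit, COX16, USMG5, ATP5I, UQCR10 and COX14, which is 9.62% of the members beside 3.79% of all transcripts. COX6C and ATP5E were lower, 2 of 52 or 3.85% beside 4.23% of all transcripts. With PF846, 2 of 51 were higher, USMG5 and COX16, or 3.92% beside 1.66%. Another 2 were lower, COX6C and COX19, again 3.92%, beside 2.13% of all transcripts. The counts for lower members thus lay close to the background with PF8503, and each of the other counts exceeds its background by only a few genes. Next to the limit, COX14 stood just past it at 0.27 and UQCC3 just short of it at 0.21 with PF8503.

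At the wider limit of 0.15, 9 members were higher with PF8503 (17.3%, beside 12.1% of all transcripts), the additional ones being UQCC3, ATP5J2, COX11 and ATP5S. On the lower side, COX20, COX17 and UQCC1 joined, giving 5 members or 9.62%, beside 10.1%. With PF846, ATP5S, UQCC3, C14orf2 and COX8A joined the higher members for a count of 6 (11.8%, beside 6.44%). UQCC1, COX20 and UQCRH joined the lower ones for a count of 5 (9.8%, beside 7.12%). At the limit of 0.5, COX16 alone was higher with PF8503, where 0.24% of all transcripts were, and USMG5 alone with PF846, where 0.0792% were. No member was lower by 0.5 in either comparison, where 1.08% of all transcripts were with PF8503 and 0.396% with PF846.

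USMG5 was the member with the largest ratio among the abundant ones. Its normalized count was 1225 in vehicle and 1649 with PF8503, a ratio of 1.35 and a log2 ratio of 0.43, the rank of 36 from the top among 9157 transcripts. In the other comparison it was 1121 in vehicle and 1647 with PF846, a ratio of 1.47 and a log2 ratio of 0.55, the rank of 3 from the top among 8839. All transcripts were ordered by signal and split into 4 classes of equal size. USMG5 lay in the class of highest signal, where the central 95% of log2 ratios ran from -0.25 to 0.18 with PF8503 and from -0.13 to 0.13 with PF846. USMG5 was therefore outside that range with both compounds, and so was COX6C on the lower side. With PF8503, ATP5I, UQCR10 and COX16 lay above the range of their own class and ATP5E below. With PF846, C14orf2, COX7A2, COX8A and UQCC3 lay above theirs and UQCC1 and UQCRH below. ATP5SL and COX16 were at the upper edge with PF846. USMG5 was named in the rule by which the members were chosen, so its position is given as a description.

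The other membrane subunits of complex V, which help to hold the enzyme together as dimers, did not share that size of difference with both compounds. With PF8503 alone, ATP5I came near USMG5, at 0.35 beside 0.43. C14orf2 was at 833 in vehicle and 887 with PF8503, a log2 ratio of 0.09, and at 762 and 876 with PF846, a log2 ratio of 0.20. ATP5I, subunit e, had 1559 normalized counts in vehicle and 1991 with PF8503, a log2 ratio of 0.35 and the rank of 94 from the top, but 1427 in vehicle and 1425 with PF846. Subunit e was thus higher in the PF8503 comparison and level in the other. ATP5J2, subunit f, stood at 0.18 and 0.11 on the log2 scale with PF8503 and PF846, and ATP5L, subunit g, at 0.08 and -0.01. All 5 membrane subunits were above 0 with PF8503, with a median log2 ratio of 0.18, and 3 of 5 with PF846, with a median of 0.11. These medians can be set beside 0.013 and 0.00086 over all transcripts.

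In the F1 head, the catalytic beta subunit ATP5B was the most abundant member by count, at 14572 in vehicle and 15293 with PF8503 and at 13338 and 14033 with PF846. Both log2 ratios were 0.07. The alpha subunit ATP5A1 went from 10399 to 10169 with PF8503, a log2 ratio of -0.03, and from 9519 to 9721 with PF846, a log2 ratio of 0.03. The gamma subunit ATP5C1, the turning shaft, stood at -0.05 and -0.03. The delta subunit ATP5D stood at 0.07 and -0.04. None of these subunits came near the limit of 0.25 with either compound.

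ATP5E, the epsilon subunit, was the exception in F1, and its values in the 2 tables do not count the same codons. It was at 888 in vehicle and 701 with PF8503, a log2 ratio of -0.34, and at 1233 in vehicle and 1188 with PF846, a log2 ratio of -0.05. For 98.5% of the 8775 transcripts in both tables, the vehicle mean of the PF8503 table was 1.09 times that of the PF846 table, within 0.002 on the log2 scale, as it must be where the same libraries and the same codons were counted. This held for 50 of the 51 members in both tables. The member that departed from it was ATP5E, whose vehicle count in the PF8503 table was 65.9% of the value that the PF846 table gives after scaling. Its PF8503 ratio therefore describes a shorter part of an already short coding sequence, one that was chosen by the authors' stall criterion in that comparison, and it should not be set against the PF846 ratio.

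The peripheral stalk, which keeps the F1 head from turning with the ring, was level. ATP5H, subunit d, stood at 0.08 with PF8503 and 0.05 with PF846. ATP5F1, subunit b, stood at -0.02 with either compound, ATP5J, coupling factor 6, at -0.07 and -0.05, and ATP5O, the oligomycin sensitivity conferring protein, at -0.01 and 0.02. The 3 genes of subunit c encode the same mature protein behind different import sequences, and all 3 lay slightly above 0 with both compounds. ATP5G1 was at 0.08 and 0.01, ATP5G2 at 0.07 for each compound, and ATP5G3 at 0.01 and 0.04. ATPIF1, the inhibitor that keeps the enzyme from running backwards, was at 1738 in vehicle and 1845 with PF8503, a log2 ratio of 0.09, and at 1591 and 1503 with PF846, a log2 ratio of -0.08. ATP5SL, named after ATP5S but known as an assembly factor of complex I, stood at 0.08 and 0.14. ATP5S itself, factor B, was the member with the lowest count, 69.6 in vehicle and 77.4 with PF8503 and 63.7 and 74.6 with PF846, with log2 ratios of 0.15 and 0.23. ATP5S lies in the class of lowest signal, where the central 95% of log2 ratios reached 0.37 with PF8503 and 0.30 with PF846.

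**Figure D2:**
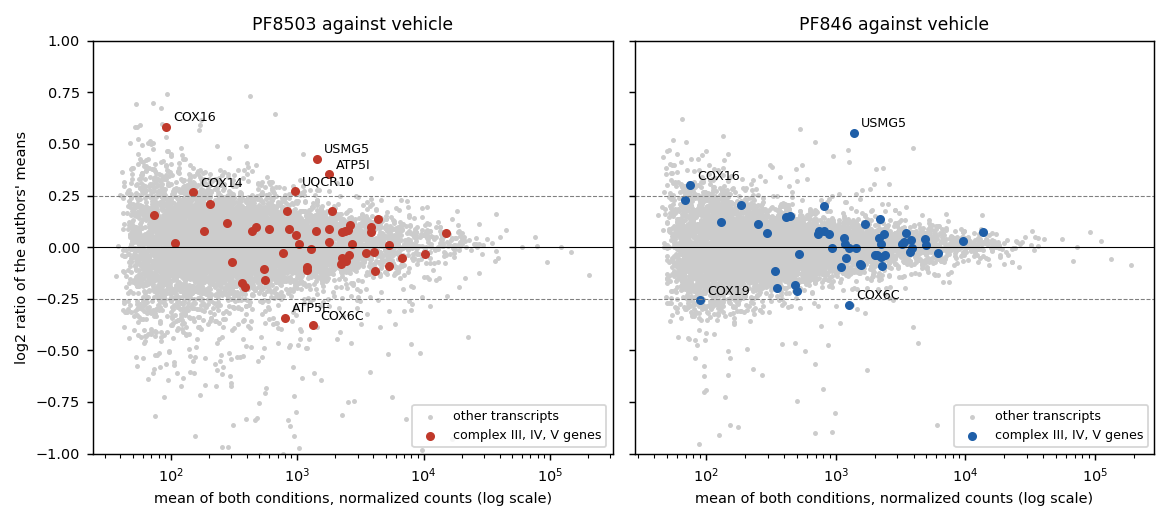
Log2 ratio of the authors' means on the y axis against the mean normalized count of both conditions on a log x axis, for PF8503 (left) and PF846 (right). Coloured points are the members and grey points all other transcripts, dashed lines mark 0.25 in either direction, and members beyond them are named. The axis ends at 1 in either direction, so 24 transcripts with PF8503 and 11 with PF846, none of them a member, are not drawn. The grey cloud widens to the left, where counts are low, and USMG5 stands at 0.55 in the PF846 panel, above nearly all transcripts of similar count.

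In complex III, the core proteins UQCRC1 and UQCRC2 stood at 0.14 and -0.03 on the log2 scale with PF8503 and at 0.04 and 0.02 with PF846. CYC1, the cytochrome c1 subunit, was at 2514 in vehicle and 2709 with PF8503, a log2 ratio of 0.11, and at 2301 and 2408 with PF846, a log2 ratio of 0.07. The Rieske iron-sulfur protein UQCRFS1 was level, at 0.02 and -0.04. Among the accessory subunits, UQCR10 was at 872 in vehicle and 1052 with PF8503, a log2 ratio of 0.27, and at 798 and 843 with PF846, a log2 ratio of 0.08. UQCR10 was the member of complex III that passed the limit, and it did so with PF8503. UQCRB stood at -0.08 and -0.04, and UQCRQ at 0.02 and -0.0017. UQCRH, the hinge protein, was below 0 with both compounds, at -0.10 and -0.18, but 72.4% of its 28-base windows also occur in UQCRHL. Of the 3 assembly factors, UQCC1 stood at -0.16 and -0.21, UQCC3 at 0.21 for each compound, and UQCC2 at -0.07 and 0.07. The median over the 11 members of complex III was 0.02 with each compound.

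CYCS, cytochrome c itself, was at 4276 in vehicle and 3948 with PF8503, a log2 ratio of -0.12, and at 3914 and 3902 with PF846. It carries electrons from complex III to complex IV and was within the limit in both comparisons.

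Of the 11 genes grouped here as structural subunits of complex IV, the supercomplex factor COX7A2L among them, COX6C alone passed the limit, with both compounds. This transmembrane subunit was at 1513 in vehicle and 1165 with PF8503, a ratio of 0.770 and a log2 ratio of -0.38, the rank of 172 from the bottom. It was at 1385 in vehicle and 1142 with PF846, a ratio of 0.825 and a log2 ratio of -0.28, the rank of 140 from the bottom. With PF846 this lay outside the central 95% of transcripts in its signal class, the highest, -0.13 to 0.13, and with PF8503 outside -0.25 to 0.18. The other 10 subunits, from the large COX4I1 (0.10 and 0.03) to the small COX7C (-0.11 and 0.05), lay between -0.11 and 0.10 with PF8503. With PF846 they lay between -0.10 (COX6A1) and 0.15 (COX8A). COX7A2 was on either side of 0, at -0.05 with PF8503 and 0.14 with PF846. The median over the 11 subunits was -0.04 with PF8503 and 0.01 with PF846.

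The assembly factors of complex IV spread more widely, and most of them were counted at low depth. COX16 was at 74.0 in vehicle and 111 with PF8503, a log2 ratio of 0.58 and the rank of 12 from the top, and at 67.7 and 83.3 with PF846, a log2 ratio of 0.30 and the rank of 79. Of its 28-base windows, 82.7% are shared with the read-through gene SYNJ2BP-COX16. Only reads matching 1 position were kept, so reads from those windows were dropped if both genes were in the authors' reference. If only COX16 was, their gene of origin is uncertain. COX14, which works with the mitochondrially encoded subunit 1, was at 136 in vehicle and 164 with PF8503, a log2 ratio of 0.27, and at 125 and 135 with PF846, a log2 ratio of 0.12. COX19 was level with PF8503, at 107 and 108, but was at 97.9 in vehicle and 81.9 with PF846, a log2 ratio of -0.26. All 3 lie in the class of lowest signal, in which the central 95% of log2 ratios ran from -0.41 to 0.37 with PF8503 and from -0.30 to 0.30 with PF846. COX14 and COX19 were inside these ranges, and COX16 was outside the range with PF8503 and at its upper edge with PF846.

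COX20, a chaperone of the mitochondrially encoded subunit 2, stood at -0.19 with PF8503 and -0.20 with PF846, and the copper chaperone COX17 at -0.17 and -0.11. COX11, which also serves copper insertion, stood at 0.18 and 0.07. The membrane insertase COX18 was at 0.12 and 0.11. Of the heme synthases, COX15 was at -0.03 and 0.08, and COX10, listed with PF8503 only, went from 179 to 189, a log2 ratio of 0.08. The median over the assembly factors was 0.08 with PF8503 (9 genes) and 0.07 with PF846 (8 genes).

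Levels of different genes can be compared only per length, so the vehicle count was divided by the number of codons counted by default, with the PF8503 table as the scale. For ATP5E, whose counted part is shorter in that table, the vehicle count of the PF846 table was used instead, scaled by the constant ratio of 1.09 to 1347. The median of all 9118 transcripts with a coding length was 0.867 normalized counts per codon. Of the members, 48 of 52 lay above that median and 37 at or above percentile 90, and the median member stood at percentile 95.7. CYCS was the highest at 49.2 counts per codon, followed by ATP5G3 at 42.5, COX5A at 41.2 and, from its scaled count, ATP5E at 40.8. At the other end were ATP5S at 0.382, COX10 at 0.421, COX16 at 0.841 and COX18 at 0.844, all below the median transcript. With no spread between libraries, neighbours in this order cannot be separated.

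Assembly factors had less footprint signal per codon than structural subunits, with little overlap. The structural subunits of complex IV had a median of 24.3 counts per codon, from 5.99 to 41.2. The lowest was COX7A2L, a supercomplex factor grouped with them here. The assembly factors of complex IV had a median of 2.00, from 0.421 to 8.598 (COX17). In complex III the accessory subunits had a median of 17.8, the core proteins 8.55, the cytochrome c1 and Rieske subunits 9.33, and the assembly factors 2.51. UQCRB was the highest of complex III, at 24.6, and UQCC1 the lowest, at 2.10. In complex V the medians were 24.3 for F1, 16.8 for the peripheral stalk, 30.3 for the genes of the c ring and 23.2 for the membrane subunits. USMG5 stood at 30.6, beside 30.6 for ATP5I.

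**Figure D3:**
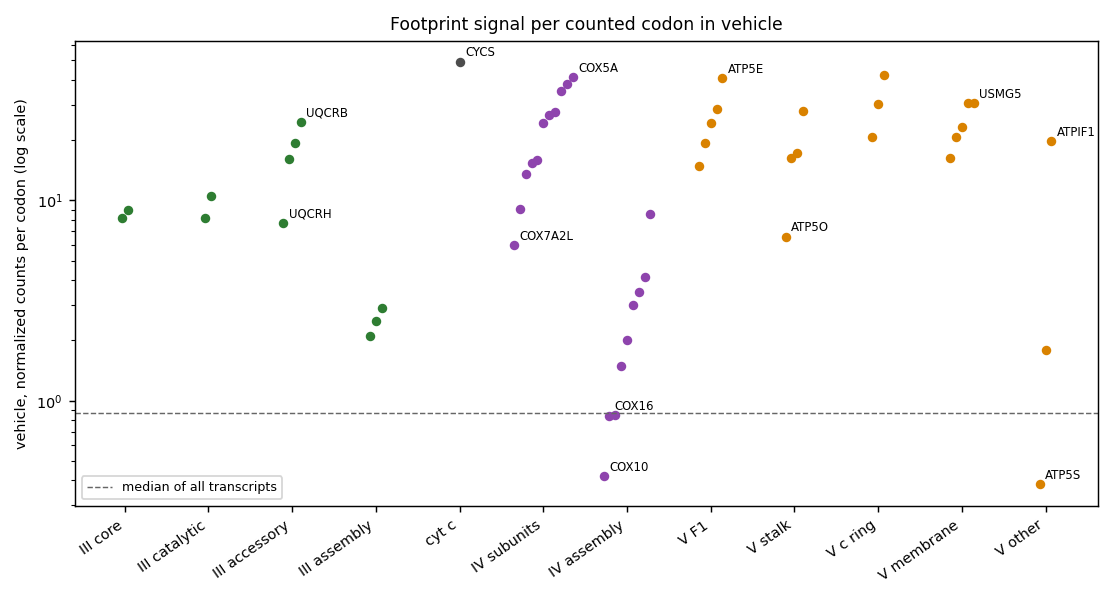
Vehicle signal in normalized counts per counted codon, on a log y axis, for each member grouped by complex and role on the x axis. Each point is 1 gene, with ATP5E at its scaled count, and the dashed line is the median of all transcripts, 0.867. The assembly factors of complexes III and IV lie below nearly all structural subunits, with COX10 and ATP5S the lowest.

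The levels can be set beside the make-up of the enzyme. Complex V holds 3 alpha and 3 beta subunits for each gamma, delta and epsilon subunit, and a ring of 8 c subunits in mammals. Per codon, ATP5A1 stood at 19.4, ATP5B at 28.5, ATP5C1 at 24.3, ATP5D at 14.8 and ATP5E, from its scaled count, at 40.8. The ratio was 0.799 for alpha over gamma, 1.17 for beta over gamma and 1.47 for beta over alpha, so the counts per codon of alpha and beta were not 3 times those of gamma. Divided by copies, alpha came to 6.48 and beta to 9.51. In the peripheral stalk, ATP5O was the lowest at 6.57 and ATP5J the highest at 27.8, but 69.4% of the 28-base windows of ATP5O are shared with another annotated gene. The 3 genes of subunit c summed to 93.6 counts per codon, or 11.7 per copy, of which ATP5G3 gave 45.4%, ATP5G2 32.4% and ATP5G1 22.2%. No 28-base window of these 3 genes was shared with another transcript searched, so exact matches of that length tell them apart. Shorter reads and alignments with mismatches were not examined.

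Several subunits of complex IV exist as tissue isoforms, and 1 form of each pair had rows here. COX4I1, COX6A1, COX6B1, COX7A2, COX7B and COX8A, the forms made in most tissues, were at 24.3, 13.6, 37.96, 35.2, 15.3 and 9.02 counts per codon. Their partners COX4I2, COX6A2, COX6B2, COX7A1, COX7B2 and COX8C are not analysed here. COX7A2L, a relative of subunit 7A that joins complexes III and IV into supercomplexes, was measured at 5.99, and COX7A2 exceeded it 5.88 times. For 8 members, some 28-base windows also occur in another gene. Besides COX16, UQCRH and ATP5O these were COX15 (81.6%), COX6A1 (60.2%), ATP5J2 (41.3%), ATP5L (26.3%) and ATP5F1 (7.7%). Reads from such windows were dropped if both genes were in the authors' reference, and otherwise their gene of origin is uncertain. The levels of these 8 members are uncertain to that extent and may be too low. The other 44 members shared none.

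Size was examined because USMG5, C14orf2, ATP5I and ATP5E are so short. Of the members, 18 encode fewer than 100 residues, and their median log2 ratio was 0.04 with PF8503 and 0.06 with PF846. In this group 4 were higher and 2 lower with PF8503, and 1 higher and 2 lower with PF846. The members of 100 residues or more had medians of 0.05 (34 genes) and 0.02 (33 genes), with COX16 as the single gene past the limit in each comparison. Of the 7 members past the limit with PF8503, 6 were therefore short, while among all transcripts under 100 residues, 18 of 174 were higher and 11 lower with PF8503, and 7 of 170 were higher and 7 lower with PF846.

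The mitochondrially encoded subunits of the same complexes stood on opposite sides of 0 in the 2 comparisons, while the medians of the nuclear-encoded members stayed near 0. These 6 proteins are made by the mitochondrial ribosome. With PF8503 all 6 were below 0, with a median log2 ratio of -0.37. By the limit 5 of 6 were lower, beside 4.23% of all transcripts, MT-ATP6 at -0.19 being within it. With PF846 all 6 were above 0, with a median of 0.45, and 6 of 6 were higher by the limit, beside 1.66% of all transcripts. MT-CYB, cytochrome b of complex III, went from 1188 to 903 with PF8503 and from 1087 to 1447 with PF846. For the catalytic subunit of complex IV, MT-CO1, the values were 3579 and 2765, and 3277 and 4567. MT-CO2 went from 624 to 484 with PF8503 and from 571 to 812 with PF846, and MT-CO3 from 1946 to 1600 and from 1782 to 2320. In complex V, MT-ATP6, part of the proton channel, was at 468 and 410 with PF8503 and at 428 and 636 with PF846, and MT-ATP8 at 358 and 273 and at 327 and 414. The nuclear-encoded median of complex III was 0.02 with each compound, that of complex IV 0.02 with PF8503 and 0.03 with PF846, and that of complex V 0.08 and 0.02. These medians include the assembly factors and other members. Over the structural subunits of complex IV alone the median was -0.04 with PF8503 and 0.01 with PF846. Fragments from mitochondrial ribosomes share their library with those of cytosolic ribosomes, and the spread of their share between libraries was not tested.

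**Figure D4:**
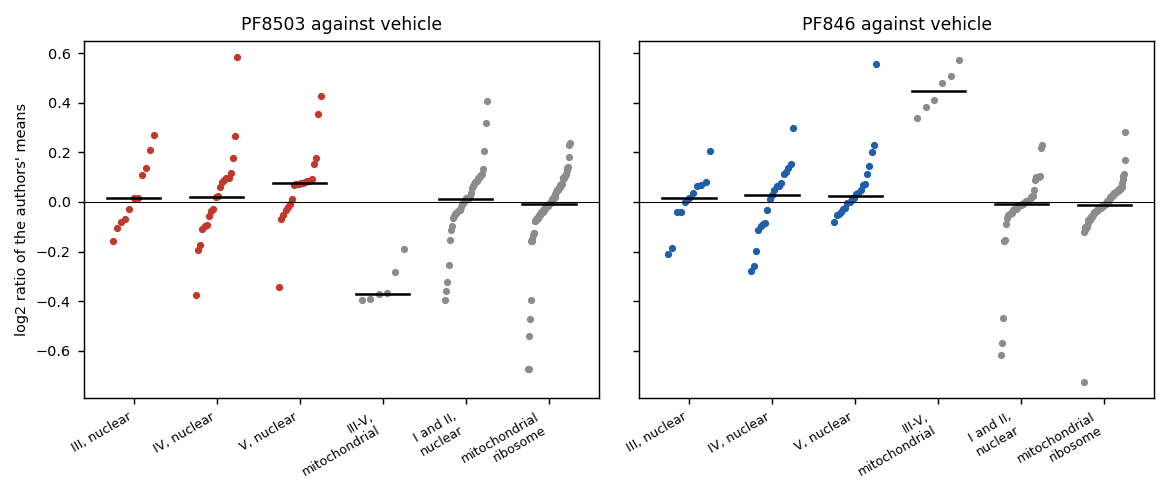
Log2 ratio of the authors' means on the y axis for the nuclear-encoded genes of complexes III, IV and V (coloured) and for related gene lists (grey), with PF8503 (left) and PF846 (right). Each point is 1 gene and each bar a median. The mitochondrially encoded subunits lie at medians of -0.37 (PF8503) and 0.45 (PF846), whereas those of the other lists drawn lie between -0.01 and 0.08.

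Other proteins that build or belong to these complexes but fall outside the naming rule gave a similar picture. Of 28 such genes, 1 was higher with PF8503, PET117, an assembly factor of complex IV, at a log2 ratio of 0.37, and none was lower, with a median of -0.03. With PF846 the median was 0.01 and none was higher, while CHCHD7 (-0.45) and LYRM7 (-0.30), an assembly factor of complex III, were lower. These genes had low counts. PET117 went from 143 to 185 with PF8503, LYRM7 from 76.9 to 62.6 and CHCHD7 from 85.2 to 62.6 with PF846. All lie in the class of lowest signal, where the central 95% of log2 ratios reached 0.37 with PF8503 and -0.30 with PF846. PET117 and LYRM7 were at the edge of these ranges but inside, and CHCHD7 was below. The complex IV subunit NDUFA4 was level, at -0.02 and 0.01. Of 38 nuclear-encoded subunits of complexes I and II, 2 were higher and 4 lower with PF8503, and none was higher and 3 were lower with PF846, with medians of 0.01 and -0.01. Proteins of the mitochondrial ribosome had a median of -0.01 in each comparison, with 5 of 70 lower and none higher with PF8503 and 1 of 71 on either side with PF846. Over all transcripts, 3.79% were higher and 4.23% lower with PF8503, and 1.66% higher and 2.13% lower with PF846. As for ATP5E, the vehicle counts show that some of these lower genes were counted over a shorter region in that comparison. These were NDUFA1, MRPL20, MRPL36, MRPS12 and MRPS31 with PF8503, and NDUFAB1 and NDUFB8 with PF846.

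Taking the log2 ratio with PF8503 minus that with PF846 for each of the 51 members in both tables, at the same dose and time, the median difference was 0.0037, beside 0.011 over all transcripts. For 47 of the 51 the difference was smaller than 0.25 in size. Of the members, 3 were higher with PF8503 by the limit, where 3.04% of all transcripts were: ATP5I by 0.35, COX16 by 0.29 and COX19 by 0.28. ATP5E differed by -0.29, where 3.56% of all transcripts were lower, but its 2 ratios count different codons. Over all transcripts the central 95% of these differences ran from -0.30 to 0.27. Among members whose counted codons were the same in both tables, ATP5I had the largest difference in size, and USMG5 differed by -0.13.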

How the data were processed

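Ribosome-protected fragments of Huh-7 cells were sequenced in 9 libraries, 3 for each of PF8503, PF846 and vehicle. The authors trimmed adapters using the FASTX toolkit, discarded ribosomal RNA reads, aligned the remainder with Bowtie to canonical coding transcripts (GENCODE version 24, GRCh38), and retained reads that matched 1 position. Reads were assigned to codons by fragment length. The authors counted reads 3' of the codon with the largest cumulative difference between conditions where its Z score reached 2, and otherwise from codon 10, leaving out the last 10 codons. Transcripts with more than 30 counts were kept. The signal values that the authors deposited were these read counts divided by DESeq size factors and averaged over the libraries of a condition, in 1 table per compound. Versions of Bowtie and DESeq are not given in the sources used here. The other columns hold the authors' fold changes and p-values and were not used. The sources number the replicates differently, so which libraries entered each mean is not certain.

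From the 2 means per gene, log2 ratios, ranks, medians and counts past a limit of 0.25 were computed with Python 3.11.15, numpy 2.4.6 and pandas 2.3.3, without a pseudocount and without a further filter. Figures were drawn with matplotlib 3.10.9. The calculation was run on simulated data with known ratios and shortened regions. These data held no noise, so the run checks the arithmetic only. No test between conditions was made, since the tables give no values of single libraries from which one could be computed and the authors' p-values were not used. The total normalized count per table was 10521744 in vehicle and 10488180 with PF8503, and 9627557 in vehicle and 9622385 with PF846. The depth of single libraries is unknown here, so no counting interval is given. Counts per codon used the coding lengths of GENCODE version 44 on GRCh38, to which 9180 of 9221 symbols matched (99.6%), all 52 members among them, and assumed the default codons. The region was called different where the vehicle means of the 2 tables departed from their constant ratio by over 0.002 on the log2 scale. Shared sequence was searched in 28-base windows over 20046 canonical coding transcripts. Named in full were the genes singled out in the naming rule, those past the limit, the extremes of each complex per codon, the subunits of complex V, the isoform sets and the mitochondrially encoded subunits. PET117, CHCHD7, LYRM7 and NDUFA4 were named after their values were seen. The members and lists were chosen with earlier results of these data known. Alternatives were other limits (0.15 and 0.5), centring, a minimum signal of 100, a pseudocount of 5 and subsets of the members.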

Additional observations from a re-analysis of the deposited data

How the results depend on the processing

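The medians and the ratios of USMG5 kept their sign under every setting tried. Signs of the other members were not followed across settings. ATP5G3 with PF8503, at 0.01264, lies just under the median of all transcripts, 0.01272, so centring puts it below 0. The limit mattered most for the counts: with PF8503, 5 members were higher at 0.25, 1 at 0.5 and 9 at 0.15, and 2, 0 and 5 were lower. With PF846, 2, 1 and 6 were higher and 2, 0 and 5 lower. With structural subunits only, 3 were higher with PF8503, and 1 higher and 1 lower with PF846. A minimum signal of 100 normalized counts left 1 higher and 1 lower with PF846, since COX16 and COX19 are below it. A pseudocount of 5 left 1 lower with PF846, and members counted over the same codons in both tables left 1 lower with PF8503, since ATP5E drops out. The median log2 ratio with PF8503, 0.042, became 0.029 after centring on all transcripts, 0.022 with the minimum signal, 0.020 for structural subunits, 0.024 without USMG5 and 0.042 with the pseudocount. The median with PF846, 0.017, became 0.017, 0.016, 0.015, 0.016 and 0.017. USMG5 moved from 0.43 to 0.42 and 0.43 with PF8503 and stayed at 0.55 and 0.55 with PF846, under centring and the pseudocount. The median per codon of the subunits of complex V was 23.2 with the counted codons as divisor. It was 18.8 when the same counts were divided by all codons of the protein. A tolerance of 0.01, chosen after seeing the data, again found 1 member with another counted region. No paired analysis was possible because the tables give a mean per condition and no values of single libraries, and leaving out single replicates could not be run for the same reason. Depth limits the members with the lowest counts, namely ATP5S, COX16, COX19 and COX14.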
